A study of Rattus norvegicus with 5 samples.

Results

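The starved, unstimulated state of Fao cells was described from the array of 0 min of insulin, which is 1 of the 5 samples of the series and was chosen by the time in its label alone. Fao is an established rat hepatoma line, grown here for 2 days in RPMI 1640 with 10% fetal bovine serum and then starved for 16 h in RPMI 1640 with 10 nM dexamethasone, a synthetic glucocorticoid. The other 4 samples received 10 nM insulin for 15, 30, 45 or 60 min after the same starvation and are used here only to say on how many arrays a probe was seen. From each sample 700 ng of total RNA was amplified, labelled with Cy3 and hybridised to a 1-colour Agilent rat expression array. The 0 min condition has no replicate array, so no value below carries a test, and precision is limited by the number of arrays. A hepatoma line is a tumour-derived model, without the other cells and the zonation of a liver.

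Hepatocytes secrete most plasma proteins, release glucose made from amino acids and lactate, turn ammonia into urea, and make bile acids, cholesterol and fatty acids. In fasting, glucocorticoids and glucagon raise the genes for glucose output through the glucocorticoid receptor and CREB, while FoxO factors are active in the nucleus. Insulin acts through its receptor, the IRS adaptors, PI3-kinase and AKT to reverse this, and the cells described here had received glucocorticoid but no added insulin.

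Expression is given as a level, the log2 of a probe's processed signal over the 75th percentile of the array (299.9 units of signal), so that a level of 0 lies at that percentile. A gene is represented by its brightest probe, and a probe counts as detected where the scanner software flagged it as well above background. Of 15340 genes with a symbol, 9383 (61.2%) were detected. The highest 10% of the detected genes, 939 genes or 6.12% of all with a symbol, began at a level of 4.54. The lowest 25% of them, 2346 genes or 15.3% of all with a symbol, lay under -1.58, and the median detected gene lay at 0.69. The error that the scanner software gives for a signal was 0.144 log2 units for the median detected gene, at most 0.15 for 81.2% of them, and 0.342 at the most. Where a probe had several spots, this error was divided by the square root of their number, which gives 0.05 for 10 spots. An error of 0.05 therefore reflects the number of spots and not a smaller spread between them. Between repeated spots of a probe the median SD was 0.140 (149 probes), so these errors cover the array and not the spread between cultures. A probe's signal also depends on its sequence: over 2257 genes with 2 or more detected probes, the brightest and the dimmest differed by a median of 2.13. Of 39 named list genes in the highest 10% with 2 or more probes, 15 had every probe in that class, and the others are placed there by their brightest. For that reason ranks serve only to form these classes and to pick the genes named, and no order is read among single genes. The median of a list is taken over all its measured genes, with those not detected ranked lowest, and is to be read beside the median of -2.29 over all genes with a symbol. Of 153 negative control spots, 2 (1.31%) were flagged as well above background.

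Gene lists for liver functions, hormone response, stress and other cell types held 805 measured genes. Of these, 645 (80.1%) were detected against 61.2% of all genes with a symbol, and 140 lay in the highest 10%. The counts of each list below are to be read beside the shares over all genes with a symbol. Those shares are 61.2% detected and 6.12% in the highest 10%. Genes with 2 or more probes were detected more often (78.7%) than genes with 1 probe (55.9%), and 77.4% of the 558 list genes with 1 probe were detected. Of the 160 list genes not detected at 0 min, 144 were detected on none of the 5 arrays by the probe used.

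**Figure D1:**
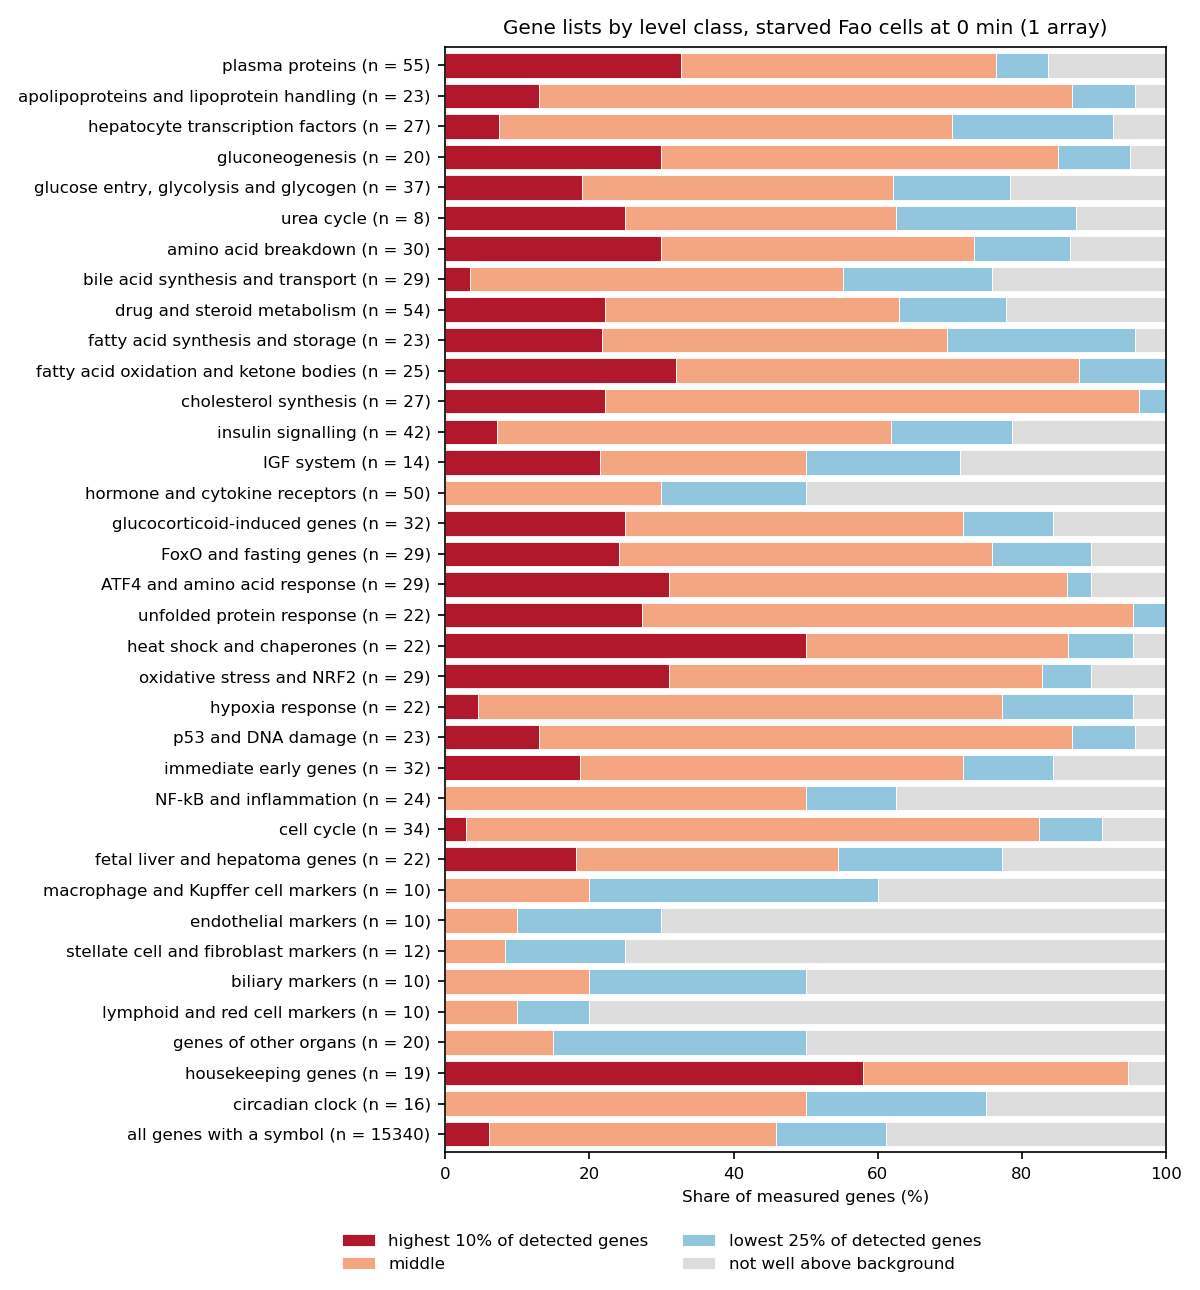
Share of the measured genes of each list (percent, x axis) in the highest 10% of detected genes, the middle, the lowest 25% and not well above background on the 0 min array, with the number of measured genes in parentheses and all 15340 genes with a symbol in the bottom bar. Housekeeping genes and chaperones have the widest red segments, and the markers of other cell types and the hormone and cytokine receptors have none.

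The label of a hepatocyte-derived line was checked first. Of 18 hepatocyte markers, 17 were detected and 11 lay in the highest 10%. The exception was Apoh, which encodes beta-2-glycoprotein I and was detected on none of the 5 arrays. The 11 include Ttr, whose brightest probe has rn4 coordinates on the mitochondrial chromosome. The 5 lists of macrophage, endothelial, stellate, biliary, and lymphoid and red cell markers held 52 measured genes, of which 19 were detected and 0 lay in the highest 10%. Over all genes with a symbol, 61.2% were detected and 6.12% lay in that class.

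Ribosomal protein genes made up 13 of the 20 highest genes and 46 of the highest 100. Among them, Rpl8 and Rpl14 of the large ribosomal subunit stood at 9.41 and 9.27, and Rps16, Rps23, Rps20 and Rps6 of the small one at 9.29, 9.24, 9.19 and 9.19, each ± 0.14. The others were Ftl1, the light chain of ferritin that stores iron (9.16), Tpt1, the translationally controlled tumour protein (9.15), and Tkt, a transketolase of the pentose phosphate pathway (9.10). They also held the ubiquitin gene Ubb (8.88), Adh1c, an alcohol dehydrogenase (8.86), and Gsta1, a glutathione transferase (8.80). Ribosomal protein, ferritin and ubiquitin genes have many processed copies in the genome, and the array file gives the name of the close relative Gsta3 to the probe of Gsta1, so these signals may hold more than 1 transcript.

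Promoters of the highest genes were read as RefSeq gives them for GRCr8, as 300 bases from 250 before to 50 after the start, 5′ to 3′ on the gene's strand. Rpl14 (chr8:129163370-129163669, plus strand) and Gsta1 (chr9:31216483-31216782, minus strand) are shown because they held the most kinds of motif among the 20 highest, together with Rplp1, which is not printed. Capitals mark CCAAT and the GC box GGGCGG in Rpl14, and in Gsta1 the letters TTGCNNAA of a C/EBP motif read on the other strand.
Rpl14: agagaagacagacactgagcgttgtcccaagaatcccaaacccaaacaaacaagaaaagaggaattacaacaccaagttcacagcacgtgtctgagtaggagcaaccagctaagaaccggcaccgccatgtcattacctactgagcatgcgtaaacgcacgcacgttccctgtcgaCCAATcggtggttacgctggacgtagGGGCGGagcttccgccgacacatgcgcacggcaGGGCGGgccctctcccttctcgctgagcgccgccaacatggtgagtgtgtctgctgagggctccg
Gsta1: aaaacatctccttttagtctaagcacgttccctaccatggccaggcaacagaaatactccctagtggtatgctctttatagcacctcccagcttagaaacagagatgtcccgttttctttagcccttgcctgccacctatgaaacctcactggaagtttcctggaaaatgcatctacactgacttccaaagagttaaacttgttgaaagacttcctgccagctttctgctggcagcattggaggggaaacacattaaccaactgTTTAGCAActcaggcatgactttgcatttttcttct

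Each motif was searched on both strands. In Rpl14 the CCAAT letters began 74 bases before the start and the GC boxes 48 and 15 bases before it. In Gsta1 the C/EBP letters began 14 bases after the start. Matches to TATAAA and CCAAT, on the other strand and not in capitals, began 176 and 14 bases before it. Over all 27457 promoters, 34.9% held a GC box, against 64.5% of the 786 promoters of the highest 10% and 34.3% of the 4717 promoters of genes not detected. Among the 12452 promoters of genes on the array the share was 50.8%. Without ribosomal protein genes, the highest 10% had 65.7%. TATAAA went the other way, in 14.3% of all promoters, 9.16% of those of the highest 10% and 17.5% of those of genes not detected. For TATAAA the share among promoters of genes on the array was 11.2%. A match in letters is a description and not a binding site.

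Many secreted plasma proteins lay among the highest genes. Of 55 measured, 46 (83.6%) were detected and 18 (32.7%) lay in the highest 10%, with a median of 2.84. Fgb, the beta chain of fibrinogen, stood at 8.58 ± 0.14, and its 3 probes read 8.58, 8.04 and 5.04. Alb, the main carrier protein of plasma, stood at 7.89 ± 0.14, and its other probes read 5.71 and 4.88. Kng1, the kininogen that releases bradykinin, stood at 7.38 ± 0.14. Hp, the haptoglobin that binds free haemoglobin, stood at 7.33 ± 0.14. Ttr, which carries thyroid hormone and retinol-binding protein, stood at 6.58, though its other probe read 1.14. The rn4 coordinates of its brighter probe lie on the mitochondrial chromosome (1530-1589). Whether that signal is of Ttr was not tested, though the gene is counted in the highest 10%. Afp, the albumin-like protein of the fetal liver, stood at 5.21 ± 0.14, so that the fetal and the adult carrier were both in the highest 10%. Members added after their values were seen were the other fibrinogen chains Fgg (6.66) and Fga (6.41), prothrombin F2 (7.23), haemopexin Hpx (7.21) and complement C3 (7.12), all in the highest 10%.

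A part of the same list was missing. The coagulation factors F7, F9, F11 and F13b and serum amyloid P, Apcs, were detected on none of the 5 arrays. Orm1, the acute-phase orosomucoid, was not detected at 0 min and was seen on 1 of the 5 arrays. Crp, named after its value was seen, was at -4.22 ± 0.22 with its other probe not detected, and was well above background only on the 0 min array. Fibrinogen and haptoglobin therefore stood in the highest class while C-reactive protein stood at the edge of detection.

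**Figure D2:**
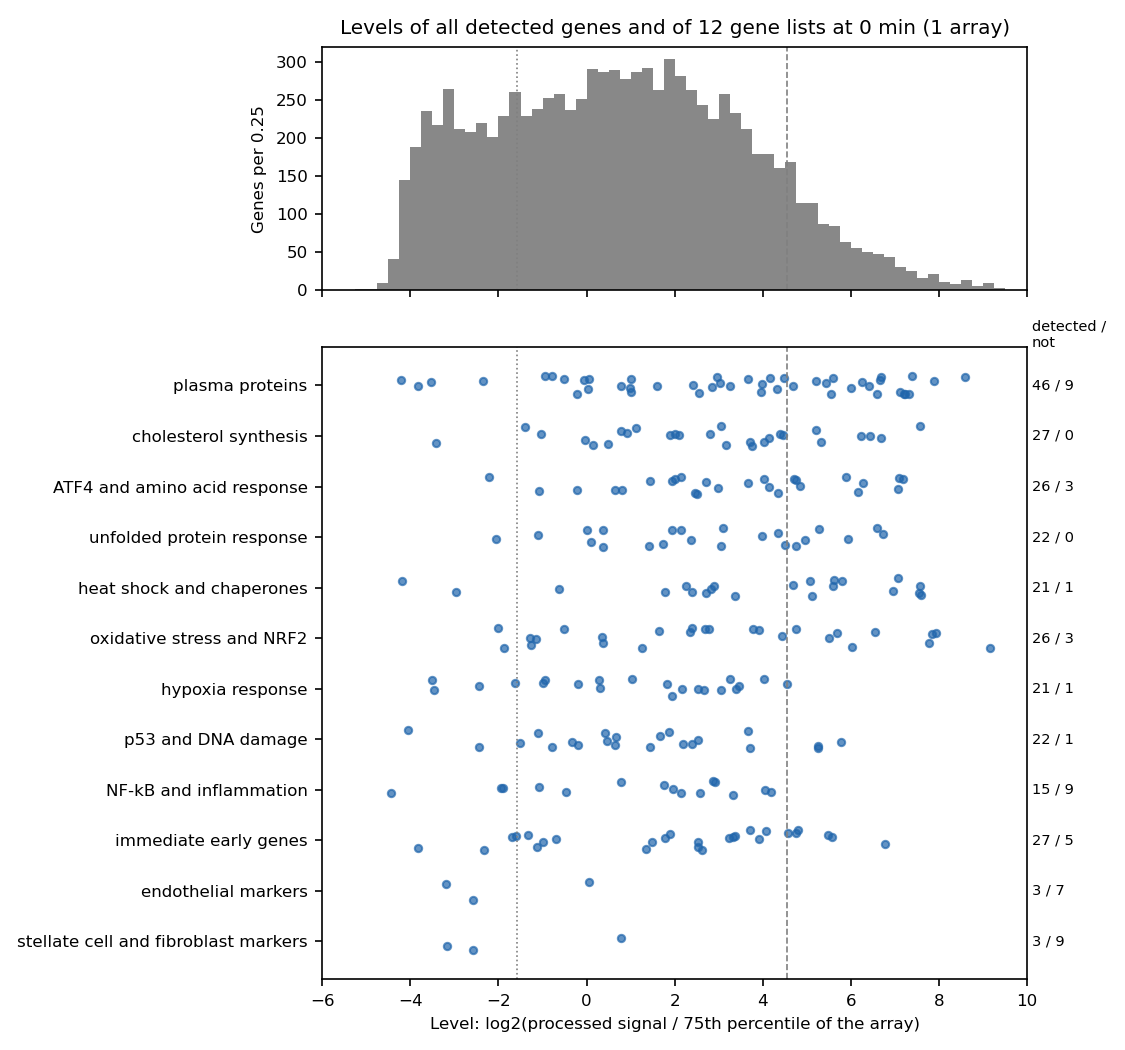
Upper panel: number of detected genes in narrow bins of level on the 0 min array. Lower panel: each detected member of 12 lists as a point at its level (log2 of processed signal over the 75th percentile), with the numbers detected and not detected at the right and dashed and dotted lines at the start of the highest 10% (4.54) and the end of the lowest 25% (-1.58). Plasma protein genes span nearly the whole range, while the few detected endothelial and stellate markers lie below 1.

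The promoters of Alb (chr14:17906930-17907229, minus strand), Fga (chr2:170671919-170672218, plus strand) and Afp (chr14:17875596-17875895, minus strand) are shown because these genes of the highest 10% share letters of liver-enriched factors; they were chosen after their values were seen. Capitals mark GTTAATNAT, a motif of the hepatocyte factor HNF1, and TTGCNNAA of C/EBP, and in Afp also TATAAA. The C/EBP letters in Alb and Fga and the HNF1 letters in Fga are read on the other strand.
Alb: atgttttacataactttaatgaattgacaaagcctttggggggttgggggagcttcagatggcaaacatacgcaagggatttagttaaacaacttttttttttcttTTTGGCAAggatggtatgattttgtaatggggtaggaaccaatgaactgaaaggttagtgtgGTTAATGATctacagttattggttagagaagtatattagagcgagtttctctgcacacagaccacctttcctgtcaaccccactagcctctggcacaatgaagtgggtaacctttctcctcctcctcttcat
Fga: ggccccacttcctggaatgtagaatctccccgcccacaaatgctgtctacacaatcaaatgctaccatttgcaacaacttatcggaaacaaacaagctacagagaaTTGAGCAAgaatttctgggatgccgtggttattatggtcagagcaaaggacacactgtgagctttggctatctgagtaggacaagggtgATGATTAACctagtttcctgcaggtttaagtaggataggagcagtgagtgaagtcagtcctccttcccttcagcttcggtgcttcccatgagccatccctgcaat
Afp: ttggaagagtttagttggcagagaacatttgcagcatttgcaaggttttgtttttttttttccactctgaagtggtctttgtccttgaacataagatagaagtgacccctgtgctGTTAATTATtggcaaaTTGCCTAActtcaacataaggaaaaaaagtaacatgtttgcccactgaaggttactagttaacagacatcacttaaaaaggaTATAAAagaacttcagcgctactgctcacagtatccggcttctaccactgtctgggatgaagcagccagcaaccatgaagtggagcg

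The HNF1 letters began 82 bases before the start in Alb, 55 before it in Fga on the other strand, and 135 before it in Afp. They were found in 7 of the 44 plasma protein promoters (15.9%), against 0.75% of all promoters and 1.15% of those of the highest 10%. In the 17 promoters of plasma protein genes in the highest 10% they were found in 4, those of Alb, Fga, Gc and Afp. The other 3 were C5 and Plg, which were detected below the highest 10%, and F13b, which was not detected, so the letters did not separate high from undetected members. The C/EBP letters were found in 17 of 44 (38.6%), against 10.5% of all promoters. GC boxes were found in 6 of 44 (13.6%), against 34.9% of all. The HNF4 letters CAAAGTCCA were found in 0 of the 44 and in 0.375% of all promoters. The HNF1 letters had been shortened from a longer consensus with the known site in the albumin promoter in mind, so the match in Alb is not independent of the choice. The lists named here and below are those that stood out among 420 shares computed, 12 motifs in each of 35 lists.

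Genes of apolipoproteins, which package lipid for export, and of lipoprotein handling were detected in 22 of 23 cases (95.7%, against 61.2% of all). The highest 10% held 3 (13%, against 6.12% of all), and the median was 1.18. Apoe, the ligand for uptake of lipoprotein remnants, stood at 8.67 ± 0.14 and Apoc1 at 7.43 ± 0.14. Scarb1, the receptor for high-density lipoprotein, stood at 4.72, with its other probe at 2.15, and Apoa5 stood below the highest 10% at 4.15. Apob, the scaffold of very-low-density lipoprotein, was named after its value was seen and was at 2.68 by its brightest probe. Its other 4 read -2.60 and -2.97 or were not detected.

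Transcription factors of hepatocytes were detected in 25 of 27 cases (92.6%), with a median of -0.44. The highest 10% held 2 (7.41%, against 6.12% of all genes with a symbol). These were Nr1h3, the oxysterol receptor LXR alpha (5.41), and Klf15, a factor of amino acid breakdown in fasting (5.27). Foxa2 stood at 4.54, just under the start of that class. Hnf4a, the central regulator of the hepatocyte state, was at -0.89 ± 0.05, with its other probe at -1.65. Cebpa was in the lowest 25% at -2.31 ± 0.15, and so was Nr1i3, the xenobiotic receptor CAR, at -3.23 ± 0.17. Its relative Nr1i2, the pregnane X receptor, was at 2.22. Foxa3 was not detected at 0 min, and Gata6 was not detected by any of its 4 probes.

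Genes for making glucose were nearly all detected and many were high. Of 20, 19 (95%) were detected and 6 (30%) lay in the highest 10%, with a median of 3.75. Pck1, the cytosolic carboxykinase that commits oxaloacetate to glucose, stood at 6.39 ± 0.14 with its other probe at 4.90. G6pc1, the phosphatase that frees glucose for release, stood at 5.33 ± 0.14, although its other probe read 1.61. Got1, the cytosolic aspartate aminotransferase, stood at 7.14, and Mdh2 and Ldha, which move carbon and reducing power between lactate, malate and oxaloacetate, stood at 5.09 and 4.55. Fbp1, the fructose bisphosphatase of liver, stood at 3.84 by 1 probe and -0.53 by the other, and Fbp2, the form of muscle, at 1.39. Pck2, the mitochondrial carboxykinase, stood at 3.67 by 1 probe and -1.15 by the other, and G6pc3, the ubiquitous phosphatase, at -0.38. The single gene of the list not detected was Ppargc1a, the coactivator PGC-1 alpha that fasting raises in liver, on none of the 5 arrays.

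The glucose transporter of liver was dim. Slc2a2, the low-affinity transporter GLUT2, was in the lowest 25% at -3.003 ± 0.162, with its other probe not detected. Hk1, the hexokinase of most tissues, was at 3.76 (other probe 0.80), and Slc2a1, the transporter GLUT1 of most tissues, at 1.82. Hk2, Hk3, Slc2a3 and the insulin-regulated transporter Slc2a4 were detected on none of the 5 arrays.

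Glycolytic and glycogen genes gave 29 detected of 37 (78.4%, against 61.2% of all genes with a symbol). The highest 10% held 7 (18.9%, against 6.12% of all). Pgam1 (7.61, other probe 4.02), Eno1 (7.30) and Gapdh (6.55), shared by glycolysis and glucose production, were in that class. Gys2, the glycogen synthase of liver, was there too at 6.91 ± 0.14, with its other probe at 3.69, and Pygl, the phosphorylase of liver, was at 1.44. Aldoa, the aldolase of muscle and fetal liver, was at 4.39, while Aldoc was not detected at 0 min. Pklr, the pyruvate kinase of liver, was at 0.30, and Pkm, the form of most tumours and tissues, was not detected on any of the 5 arrays by the probe used. Txnip, a glucose-responsive inhibitor of thioredoxin, and Pfkp, a phosphofructokinase of platelets, were also detected on none.

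**Figure D3:**
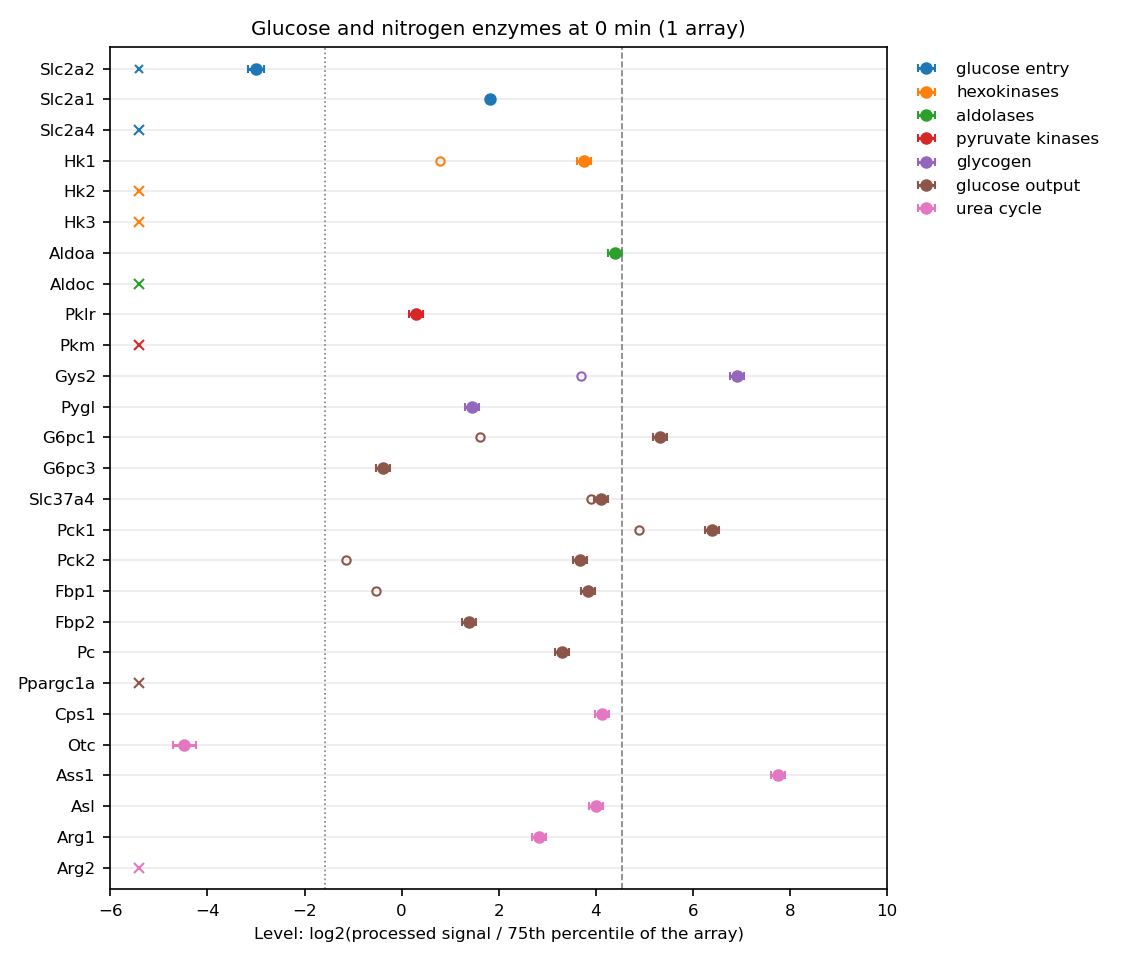
Level (log2 of processed signal over the 75th percentile, x axis) of genes of glucose use, glucose output and the urea cycle on the 0 min array. Filled points are the brightest probe with its error, and open circles are other detected probes. Crosses are probes not well above background, drawn at the lowest detected level of the array (-5.41). Dashed and dotted lines are the bounds 4.54 and -1.58. Pck1, G6pc1, Gys2 and Ass1 lie right of the dashed line and Slc2a2 and Otc left of the dotted one.

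The promoter of G6pc1 (chr10:86807409-86807708, plus strand), chosen after its value was seen, is shown with the HNF1 letters and TATAAA in capitals.
G6pc1: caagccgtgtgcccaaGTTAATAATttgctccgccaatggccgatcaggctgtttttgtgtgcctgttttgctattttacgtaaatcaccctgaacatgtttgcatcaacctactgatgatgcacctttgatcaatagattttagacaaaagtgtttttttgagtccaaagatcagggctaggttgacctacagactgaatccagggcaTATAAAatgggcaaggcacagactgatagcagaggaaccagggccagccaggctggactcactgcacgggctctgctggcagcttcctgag

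The HNF1 letters began 234 bases and the TATAAA letters 41 bases before the start. The letters of CREB, TGACGTCA, and of the glucocorticoid receptor (AGAACA, any 3 letters, then TGTTC) were not in this window. Over all promoters they were found in 1.91% and 0.0364%. In the 786 promoters of the highest 10% they were found in 30 and 0.

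Nitrogen disposal was uneven. In the urea cycle 7 of 8 genes (87.5%) were detected and 2 (25%) lay in the highest 10%. These were Ass1, the argininosuccinate synthase, at 7.76 ± 0.14 and Slc25a15, the mitochondrial ornithine carrier, at 4.70. Cps1, which makes carbamoyl phosphate, was at 4.13, Asl at 4.01 and Arg1, which releases urea, at 2.82. Otc, the enzyme between Cps1 and Ass1, was at -4.47 ± 0.24 and well above background only on the 0 min array. Arg2, the arginase of other tissues, was detected on none of the 5 arrays.

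Amino acid breakdown gave 26 of 30 detected (86.7%) and 9 (30%) in the highest 10%, with a median of 2.39. Bhmt, which remethylates homocysteine, stood at 8.56 ± 0.14, with its other probe at 6.24. Hal, which starts histidine breakdown, stood at 7.05 by 1 probe and at -0.80 by the other. Oat, the ornithine aminotransferase, stood at 6.86, with its other probe at 3.84. Tat, the tyrosine aminotransferase that glucocorticoids raise, stood at 4.83 ± 0.14. Tdo2, the tryptophan dioxygenase that glucocorticoids also raise in liver, was detected on none of the 5 arrays, and neither were Uroc1 and Aass.

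Genes of fatty acid oxidation were detected throughout, in 25 of 25 cases, with 8 (32%) in the highest 10% and a median of 3.41. Acaa1a, a thiolase of the peroxisome, stood at 6.45, with its other probe at 3.92, Acsl1, which activates fatty acids, at 6.15, with others down to -0.63, and Acadl, a dehydrogenase of the mitochondrion, at 6.08. Fgf21, the fasting hormone of liver, was in the lowest 25% at -2.22 ± 0.15. Cpt1a, the gate of mitochondrial oxidation, was named after its value was seen and lay in the middle at 2.59.

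Fatty acid synthesis gave 22 of 23 detected (95.7%) and 5 (21.7%) in the highest 10%, with a median of 2.00. Srebf1, the factor that drives lipid synthesis under insulin, stood at 5.77 ± 0.14, its second detected probe at 3.38 and a further probe not detected. Fabp1, the liver fatty acid binding protein, stood at 5.16, Fasn, the fatty acid synthase, at 4.95 and Acaca, the acetyl-CoA carboxylase, at 4.69. Their other probes read 4.07 for Fabp1, 3.997 for Fasn and, in the lowest 25%, -1.85 for Acaca. Pparg was the member not detected. Thrsp, named after its value was seen and known as a lipogenic gene of fed liver, was in the lowest 25% at -3.77 ± 0.19.

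Genes of cholesterol synthesis were also detected throughout, in 27 of 27 cases, with 6 (22.2%) in the highest 10% and a median of 3.05. Msmo1, a sterol methyl oxidase, stood at 7.56 ± 0.14, and Hmgcs1, the first step committed to the pathway, at 6.68, with its other probe at 2.30. Fdps, which makes farnesyl diphosphate, stood at 6.44, with its other probes at 6.39 and 1.11. Insig1, which holds the sterol sensor in the endoplasmic reticulum, stood at 6.24, and its 3 other probes read 5.22, 3.79 and 2.61. The SREBP motif of the sterol regulatory element, searched as 10 fixed letters, was found in 0 of the 19 promoters of the list and in 0.102% of all.

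Of 29 bile acid genes, 22 (75.9%) were detected against 61.2% of all genes with a symbol, and the median was -1.53. Of those detected, 15 lay in the middle and 6 in the lowest 25%. In the highest 10% lay 1 (3.45%, against 6.12% of all). Abcc2, the canalicular exporter of conjugates, was that gene, at 5.83 ± 0.05. Cyp27a1, of the acidic pathway, and Baat, which conjugates bile acids, were both at 4.20, and Abcg5, a sterol exporter, at 3.60. Cyp7a1, the rate-limiting enzyme of the classic pathway, was at -1.53, and Slc10a1, which takes bile acids up from blood, at -2.21 in the lowest 25%. Abcb11, the bile salt export pump, was detected by neither of its 2 probes on any of the 5 arrays. Cyp7b1, Slc27a5, Slco1a1, Slco2b1 and Slc51a were also detected on none.

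Of 54 genes of drug and steroid metabolism, 42 (77.8%) were detected against 61.2% of all genes with a symbol, with a median of -0.12. The highest 10% held 12 (22.2%, against 6.12% of all). Gsta1 (8.80), Gstp1 (7.93) and Gsta3 (7.92), which join glutathione to reactive compounds, and Aox1, an aldehyde oxidase (7.34), were in that class. Gstp1 is the transferase that rises in rat liver tumours, and its other probe read 5.95. Cyp2e1, which oxidises ethanol, was in the highest 10% at 5.47 ± 0.05, and so was Cyp4f1 at 7.21, named after its value was seen. The cytochromes Cyp2a2, Cyp2c11, Cyp2c12, Cyp2d3, Cyp2j3, Cyp2j4 and Cyp3a2 were detected on none of the 5 arrays, Cyp2c11 and Cyp2c12 being the male and female forms of rat liver. Members of a cytochrome or transferase family resemble each other closely, and cross-hybridisation between them was not tested. Hsd11b1, which regenerates active glucocorticoid, was also detected on none, and neither were the sulfotransferases Sult1c3 and Sult2a1, named after their values were seen.

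Of 42 genes of the insulin pathway, 33 (78.6%) were detected against 61.2% of all genes with a symbol, with a median of -0.68. The highest 10% held 3 (7.14%, against 6.12% of all). Those were Eif4ebp1, the translation repressor that mTOR inactivates (6.16), Trib3, a pseudokinase that binds AKT (5.89), and Hras (4.83), whose other probes read 2.06 and 1.82. Insr, the insulin receptor, was in the lowest 25% at -2.96 ± 0.16 by its single probe (rn4 chr12:3087143-3087201), detected on all 5 arrays. Irs2, the adaptor that fasting raises, was at 4.11 by its brightest probe and at -1.21, -1.35 and -2.02 by the others, and Irs1 was at -2.15. Akt1 was at 2.43 ± 0.05 and Akt2, the form that insulin uses most in liver, at -1.44. Foxo1 and Foxo3, which AKT excludes from the nucleus, were at -0.71 and -2.79. Irs4, Pik3cd, Pik3cg and Pik3r3 were detected on none of the 5 arrays, and Gab1 and Pik3r1 on 1 of them but not at 0 min.

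The IGF system held 10 detected genes of 14 (71.4%, against 61.2% of all genes with a symbol). Of the 14, 3 (21.4%, against 6.12% of all) lay in the highest 10%. Igfbp1, a binding protein that insulin represses in liver, stood at 7.63 ± 0.14 (probe at rn4 chr14:87954736-87954795). Igfbp4 stood at 5.76, with its other probe at 0.20, and Igf2r, which clears IGF2, at 5.01. The growth factors themselves were dim, Igf1 at -3.05 ± 0.16 with 2 of its 4 probes not detected and Igf2 at -3.13 ± 0.16. Ide, the insulin-degrading enzyme, was at 2.34. Ghr, the growth hormone receptor, was at 0.13, with its other probes at -3.09 or not detected. Igf1r, Igfbp2, Igfbp3 and Igfbp5 were detected on none of the 5 arrays.

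Of 50 hormone and cytokine receptors, 25 (50%) were detected against 61.2% of all genes with a symbol, and 0 lay in the highest 10% against 6.12%. Of those detected, 15 lay in the middle and 10 in the lowest 25%. Nr3c1, the glucocorticoid receptor through which dexamethasone acts, was at 1.55 ± 0.05 with its other probe at 1.16. Tnfrsf1a, a receptor of tumour necrosis factor, was at 4.33. The adiponectin receptor Adipor2 was at 3.53, with its other probe at 0.88, and the adiponectin receptor Adipor1 at 2.85. Bmpr1a was at 1.72, with its other probe at -2.70. Gcgr, the glucagon receptor, was detected on none of the 5 arrays, nor were the oestrogen receptors Esr1 and Esr2, the thyroid hormone receptor Thrb or Rarb. Members added after their values were seen were the adrenergic receptors Adra1a, Adrb1 and Adrb3 and the receptors Prlr and Lepr, also detected on none.

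**Figure D4:**
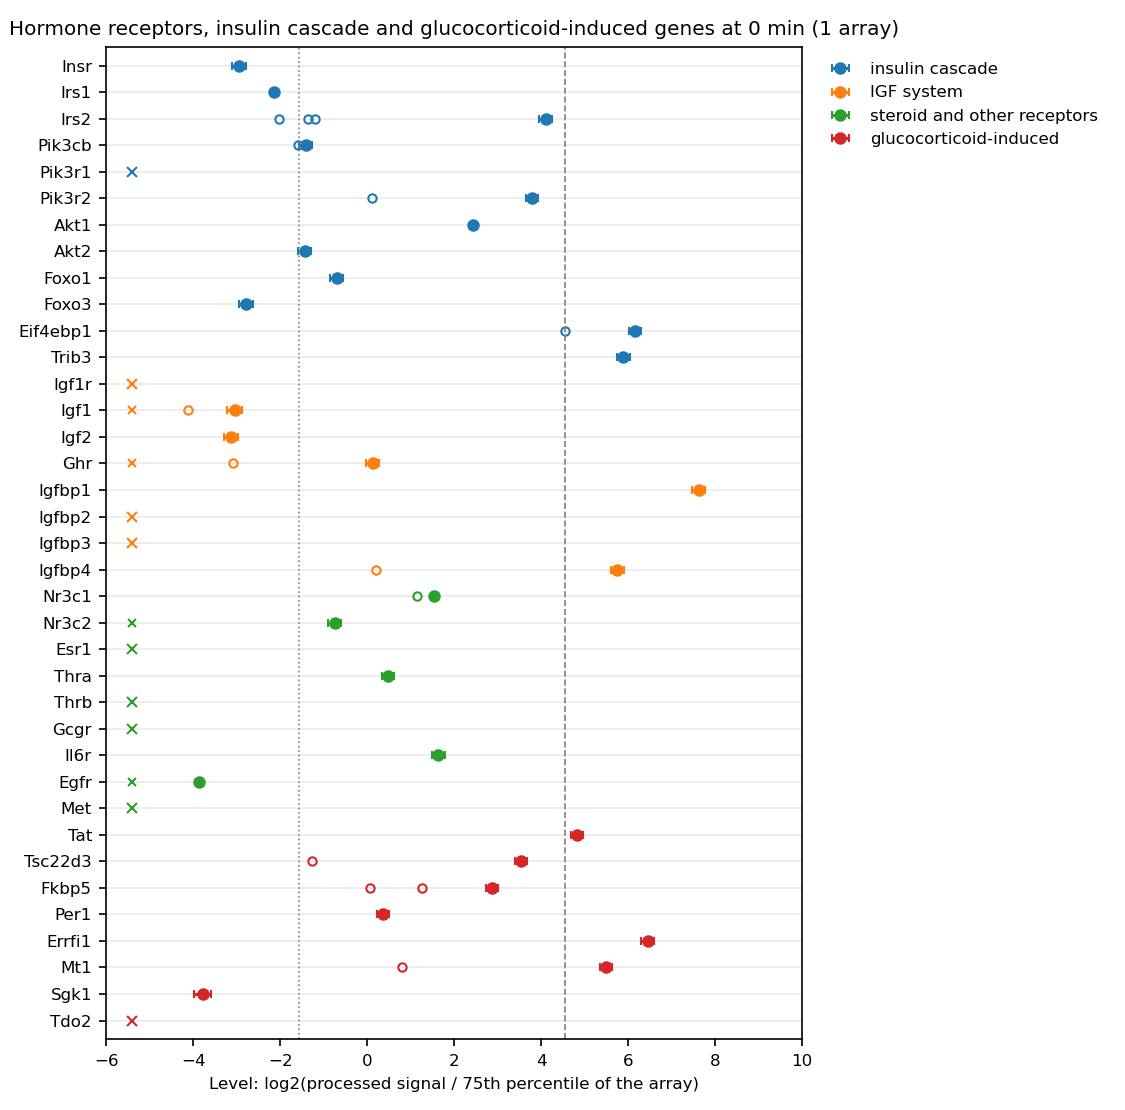
Level (log2 of processed signal over the 75th percentile, x axis) of genes of the insulin cascade, the IGF system, hormone receptors and glucocorticoid-induced genes on the 0 min array, with marks as in the plot of glucose and urea genes. Igfbp1, Errfi1 and Eif4ebp1 lie above the start of the highest 10% and Insr, Foxo3 and Sgk1 below the end of the lowest 25%.

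Genes known to rise with glucocorticoid were detected in 27 of 32 cases (84.4%), with 8 (25%) in the highest 10% and a median of 1.74. Igfbp1 (7.63), Errfi1, an inhibitor of the EGF receptor (6.45), Pck1 (6.39), Tgm2, a transglutaminase (5.64), G6pc1 and Tat were in that class. Nfkbia, the inhibitor of NF-kB, was at 4.06, with its other probe at -1.33. Members added after their values were seen were Tsc22d3 (GILZ) at 3.54 and Fkbp5 at 2.87, and Sgk1 in the lowest 25% at -3.79 ± 0.19. The other probes of Fkbp5 read 1.27 and 0.07. Tdo2, Hsd11b1 and Ppargc1a were detected on none of the 5 arrays, and Zbtb16 by neither of its probes at 0 min. The array has no sample without dexamethasone, so a level here says nothing of what the steroid changed.

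FoxO and fasting genes gave 26 of 29 detected (89.7%), 7 (24.1%) in the highest 10% and a median of 1.87. Apart from Igfbp1, Pck1, G6pc1 and Eif4ebp1, the class held Gabarapl1 of the autophagosome (6.88) and Klf15 (5.27), and Map1lc3b, also of the autophagosome and named after its value was seen (4.89). Fbxo32, a ubiquitin ligase of muscle wasting, was detected on none. The promoter of Igfbp1 (chr14:86261027-86261326, plus strand), chosen after its value was seen, is shown with the HNF1 letters, read on the other strand, in capitals.
Igfbp1: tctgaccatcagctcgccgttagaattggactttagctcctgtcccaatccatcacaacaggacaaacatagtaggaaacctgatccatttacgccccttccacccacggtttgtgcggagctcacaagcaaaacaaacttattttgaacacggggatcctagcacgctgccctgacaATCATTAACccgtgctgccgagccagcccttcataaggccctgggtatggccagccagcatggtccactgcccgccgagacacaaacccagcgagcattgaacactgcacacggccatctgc

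These letters began 72 bases before the start. They are the same 9-letter motif as in Alb, Fga, Afp and G6pc1. The letters were found in 1 of 17 gluconeogenesis promoters (5.88%) and in 1 of 13 of the IGF system (7.69%). Over all promoters the share was 0.75%. G6pc1 and Igfbp1 are those single promoters and do not stand for their lists. The promoters shown were selected after their values were seen, and the match is a description.

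Several groups of stress genes had many high members. The series has no unstarved sample, so a level here says nothing of whether a stress response was raised. Genes of the amino acid response under ATF4 gave 26 of 29 detected (89.7%) and 9 (31%) in the highest 10%, with a median of 2.70. Phgdh, the first enzyme of serine synthesis, stood at 7.18 ± 0.14, Nupr1, a stress-induced nuclear protein, at 7.09, Atf4 itself at 7.08 and Atf5 at 6.28. Trib3 stood at 5.89, Asns, the asparagine synthetase, at 2.98, and Ddit3, the factor CHOP, at 1.95. Slc7a11, the cystine transporter, was not detected at 0 min and was seen on 2 of the 5 arrays, and Vldlr and Stc2 were detected on none.

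Transcripts of the unfolded protein response list were detected for 22 of 22 measured genes (100%, against 61.2% of all). The highest 10% held 6 (27.3%, against 6.12% of all), and the median was 2.71. Edem1, which sends misfolded glycoproteins to degradation, stood at 6.73 by 1 probe, and its other probes read 1.19 and -1.21. Hspa5, the chaperone BiP, stood at 6.58 ± 0.14, and the disulfide isomerases Pdia6 and P4hb at 5.93 and 5.28.

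Heat shock proteins and chaperones had 21 of 22 genes detected (95.5%) and 11 (50%) in the highest 10%, with a median of 4.03. Hspe1 (7.59) and Hspd1 (7.54) of the mitochondrial chaperonin and Hsp90ab1 (7.57) and Hsp90aa1 (7.07) of the cytosol were in that class by their brightest probes. Hspa1a, the inducible HSP70, stood at 5.11 ± 0.05 with its other probe at 2.99, while the probe of its near-identical neighbour Hspa1b was detected on none of the 5 arrays. Because these genes are nearly identical, which transcript a probe reads was not tested. Hspb1, named after its value was seen, was in the lowest 25% at -2.96.

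Promoters of stress genes are shown because they hold letters of the factor that names their group, Hspa5 (chr3:38452766-38453065, plus strand), Trib3 (chr3:161275484-161275783, minus strand) and Hspe1 (chr9:64084077-64084376, plus strand). They and their motifs were chosen after the values and the first motif shares were seen. Capitals mark the ER stress element in Hspa5 (CCAAT, any 9 letters, then CCACG), TGATGNAA of ATF4 read on the other strand in Trib3, and the motif of heat shock factor in Hspe1 (GAA, TTC and GAA, each parted by any 2 letters), where a match on each strand overlaps the other.
Hspa5: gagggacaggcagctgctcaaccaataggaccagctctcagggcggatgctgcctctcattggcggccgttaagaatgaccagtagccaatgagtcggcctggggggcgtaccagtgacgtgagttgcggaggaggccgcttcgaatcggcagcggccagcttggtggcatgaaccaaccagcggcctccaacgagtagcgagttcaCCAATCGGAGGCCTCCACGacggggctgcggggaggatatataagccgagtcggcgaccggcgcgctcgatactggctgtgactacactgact
Trib3: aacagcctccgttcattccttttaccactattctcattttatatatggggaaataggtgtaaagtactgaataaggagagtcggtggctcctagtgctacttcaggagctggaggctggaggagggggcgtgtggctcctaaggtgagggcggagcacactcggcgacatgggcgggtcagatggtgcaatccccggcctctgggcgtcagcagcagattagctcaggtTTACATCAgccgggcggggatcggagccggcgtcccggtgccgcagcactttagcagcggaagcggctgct
Hspe1: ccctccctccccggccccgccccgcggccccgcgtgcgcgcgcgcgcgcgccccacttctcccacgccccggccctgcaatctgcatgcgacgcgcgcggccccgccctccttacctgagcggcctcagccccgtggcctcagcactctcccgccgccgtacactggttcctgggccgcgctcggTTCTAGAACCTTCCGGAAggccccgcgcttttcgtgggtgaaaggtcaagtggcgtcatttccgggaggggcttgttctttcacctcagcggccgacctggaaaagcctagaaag

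The ER stress element, which contains CCAAT, began 43 bases before the start in Hspa5. It was found in 6 of the 17 promoters of the unfolded protein response, those of Hspa5, Hsp90b1, Calr, Canx, Dnajc3 and Creld2, and in 0.0765% of all promoters. Canx was at -1.11, so the element was not confined to high members. CCAAT alone was found in 17 of 17, against 37.7% of all. The ATF4 letters were found in 7 of 26 promoters of the ATF4 list (Chac1, Trib3, Slc7a1, Fgf21, Nupr1, Pck2 and Nars1) and in 3.82% of all, and Fgf21 was in the lowest 25%. The heat shock letters were found in 5 of 18 (Hspa8, Hspd1, Hspe1, Hsph1 and Dnaja1) and in 0.736% of all. Hspd1 and Hspe1 lie head to head and their windows overlap, so these are not independent matches.

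**Figure D5:**
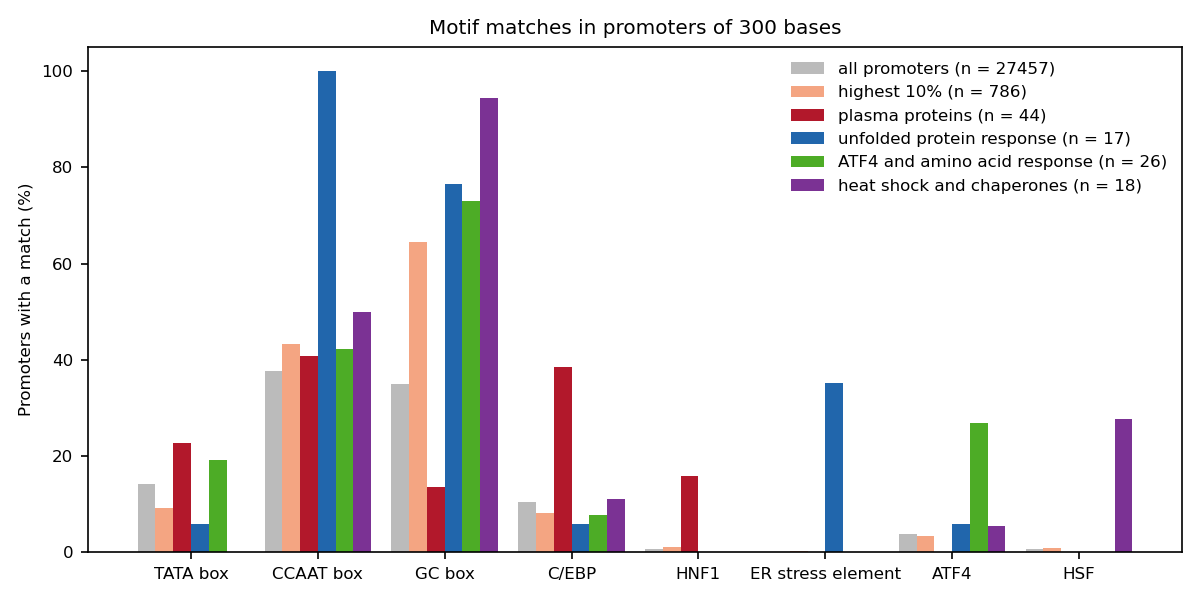
Share of promoters (percent, y axis) that hold each motif on either strand, for all promoters, the highest 10% of genes on the 0 min array and 4 gene lists, with the number of promoters in each. The CCAAT bar of the unfolded protein response list reaches 17 of 17, and the HNF1, ER stress element, ATF4 and heat shock factor bars are near 0 for all promoters.

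Oxidative stress genes gave 26 of 29 detected (89.7%), with 9 (31%) in the highest 10% and a median of 2.40. Ftl1 (9.16) and Fth1 (7.85) store iron, Gstp1 stood at 7.93, and Sod1, the cytosolic superoxide dismutase, at 7.78. All 5 probes of Ftl1 lay between 7.08 and 9.16. The inducible genes Hmox1, which degrades haem, and Nqo1, a quinone reductase, were in the middle at 2.40 and 1.65. Gpx2 and Gpx3 were detected on none of the 5 arrays.

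Hypoxia genes were detected in 21 of 22 cases (95.5%, against 61.2% of all genes with a symbol). In the highest 10% lay 1 (4.55%, against 6.12% of all), Ldha, at a level of 4.55 just inside that class. Vhl, which marks HIF for degradation, was at 4.02, Hif1a at 3.47 (other probe 1.11) and Adm, a vasodilator peptide, at 3.40. Epo was detected on none of the arrays. Of the genes of p53 and DNA damage, 22 of 23 (95.7%, against 61.2% of all) were detected. The highest 10% held 3 (13%, against 6.12% of all). These were Gadd45g (5.78), Gadd45b (5.25) and the death effector Bax (5.24, other probe 2.90), and Btg2 was at 3.71.

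Immediate early genes, which growth factors induce within minutes, were detected at 0 min in 27 of 32 cases (84.4%, against 61.2% of all). Over the genes of all lists the detected share was 80.1%. The highest 10% held 6 (18.8%, against 6.12% of all), and the median was 1.84. Nr4a1, an orphan nuclear receptor, stood at 6.78 ± 0.14, Klf6 at 5.58, with its other probe at 0.65, Ier2 at 5.48, Dusp6, a phosphatase of ERK, at 4.79, and Egr1 at 4.58 ± 0.05. Jun was at 4.08, Myc at 3.92 and Fos at 1.78. Fosl1 and Egr3 were not detected at 0 min, and Egr4, Klf2 and Arc were detected on none of the 5 arrays.

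Inflammatory genes of NF-kB were detected in 15 of 24 cases (62.5%, against 61.2% of all genes with a symbol), with 0 in the highest 10% against 6.12% of all. Cxcl1, a neutrophil chemokine, was at 4.18 and Nfkbia at 4.06 (other probe -1.33), and the factor Stat3 was at 3.33. Ccl2, Ccl20, Vcam1, Tnf and Il1b were detected on none of the 5 arrays, and Cxcl2 was seen on 3 of them but not at 0 min.

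The cells carried transcripts of division. Of 34 cell cycle genes, 31 (91.2%) were detected against 61.2% of all genes with a symbol. In the highest 10% lay 1 (2.94%, against 6.12% of all), Cdk1, the kinase of mitosis, at 5.05 ± 0.14. Pcna, the clamp of replication, was at 3.68, Plk1 at 3.64 and Cdk4 at 3.44, and the median was 1.75. Ccnd2, Ccnb2 and Cdkn2b were detected on none.

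Markers of other liver cells were also counted, to be read beside the 61.2% detected among all genes with a symbol. Of macrophage markers 6 of 10 were detected, among them Cd14 at 0.58, with its other probe at -2.47, and Lyz2 at -0.30, and Cd163, Adgre1, C1qa and Aif1 were not. Of endothelial markers 3 of 10 were detected, Eng at 0.05, Cdh5 at -2.57 and Kdr at -3.19, and Pecam1, Tek, Tie1, Stab2, Lyve1 and Vwf were not. Of stellate and fibroblast markers 3 of 12 were detected, Col1a1 at 0.77, Vim at -2.57 and Col1a2 at -3.16. Cdh5, Col1a1 and Col1a2 each also had a probe that was not detected. Of biliary markers 5 of 10 were detected, among them Slc4a2 at 1.17, and Krt7, Epcam, Spp1 and Cftr were not. Of lymphoid and red cell markers 2 of 10 were detected, Cd3d at -0.48 and Nkg7 at -3.23. Whether these signals are of those transcripts was not tested.

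Of 20 genes of unrelated organs, 10 (50%) were detected against 61.2% of all genes with a symbol. Of those detected, 7 lay in the lowest 25% and 3 in the middle, and 0 lay in the highest 10% against 6.12% of all. Actc1 of heart muscle was at 2.22, although its other probe was not detected. Ckm of muscle was at 0.74, Sftpc of lung at -1.09 and the insulin gene Ins2 at -2.05. Detection in the middle or the lowest 25% was therefore found for genes of unrelated organs too, and members of the other lists in those classes share that limit. Housekeeping genes were detected in 18 of 19 cases (94.7%), with 11 (57.9%) in the highest 10% and a median of 5.48. Actb was at 6.66 ± 0.05 and 6.60 by its 2 probes and Gapdh at 6.55 ± 0.05 and 6.17. Hprt1, a purine salvage enzyme often used as a reference, was detected by none of its 4 probes on any of the 5 arrays.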

How the data were processed

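Intensity was deposited as the processed signal of Agilent Feature Extraction 9.5.3.1, after background subtraction, per the file headers; array design 014879 carries rn4 probe coordinates. The flag for a spot well above background uses 2.6 background standard deviations, per the file headers. The submitters' processing notes name Agilent Feature Extraction, and later steps are not given in the sources used here. The deposited series matrix was not used.

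On the 0 min array, 43379 non-control spots were read, 22819 (52.6%) well above background and 0 saturated; 123 outlier spots were left out. Spots of a probe were averaged, divided by the 75th percentile and put on a log2 scale. Probes were named through the accession or symbol in the files and a RefSeq table of GRCr8 (names only): 11140 by accession, 5117 by symbol, 3424 by older symbol, and 21331 kept the file's name. Exons and untranslated regions were not assigned. Of 852 list genes, 805 were measured.

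Members and lists were chosen with earlier results of these data known. Genes were named by a rule: the 20 highest, each list's 4 highest members and up to 6 undetected in written order, and a set of liver genes; others were chosen after their values were seen. A few genes of the rule are not reported here. Promoters came from RefSeq (GRCr8). Alternatives were another detection flag, background correction (limma 3.58.1, R 4.3.3), scaling, probe rule and thresholds. The level of a probe was tested on simulated data, while the class and brightest-probe rules were not. Tables were handled with pandas 2.3.3 and numpy 2.4.6 under Python 3.11.15, and figures were drawn with matplotlib 3.10.9.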

Additional observations from a re-analysis of the deposited data

How the results depend on the processing

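No paired analysis was possible because the 0 min condition has 1 array. Naming probes by accession alone left 5487 detected genes, against 9383, by construction. With the flag for signal above background in place of well above background, 6 stellate and 5 lymphoid and red cell markers were detected, against 3 and 2, and the counts of the other 33 lists stayed within 1.5 times. With thresholds of 5% and 20%, 92 and 224 list genes lay in the highest class, against 140. Of 36 counts in that class (35 lists and their total), 13 and 18 moved by over 1.5 times with these thresholds, 12 with ranks over all genes and 3 with a median over probes. By a median over probes, 775 of the 932 highest genes were shared with the 939 of the brightest-probe rule, and 67 of 189 named levels moved beyond their error, by up to -5.55. A gene with 1 probe keeps its level under that rule by construction, so the 122 unmoved levels include all such genes. Normexp shared 924 of 939 and shifted levels by a median of -0.23 (-0.35 to 2.22), with 171 of 189 moved beyond their error. Scaling on detected spots shifted all by -2.11.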

Other observations

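Fetal liver and hepatoma genes were split on the 0 min array. Of 22 measured, 17 (77.3%) were detected against 61.2% of all genes with a symbol. The highest 10% held 4 (18.2%, against 6.12% of all): Gstp1 (7.93), the keratin Krt18 (7.87), the aldo-keto reductase Akr1b8 (6.07) and Afp (5.21). Krt19 (-2.42), Sox9 (-2.72) and Igf2 (-3.13) were in the lowest 25%. Gpc3, Dlk1, Igf2bp1, Hk2 and Pkm were detected on none of the 5 arrays.

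Circadian clock genes were detected in 12 of 16 cases (75%, against 61.2% of all genes with a symbol). In the highest 10% lay 0 of them, against 6.12% of all, and the median was -1.67. Nfil3, a repressor of the output genes, was at 3.34, Bmal1 at 1.22, Dbp at 1.17 and Cry1 at 0.91. Npas2 and Bhlhe41 were detected on none of the 5 arrays, and Nr1d2 and Rora on 1 and 2 of them but not at 0 min.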
